A study of Mus musculus with 46 samples.

Results

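Ovarian follicles sampled 8 h after human chorionic gonadotropin (hCG) were compared with one another, each of the 11 follicles giving 1 library. They are all the follicles at that time among the 46 in the study, chosen by their labeled time and batch, and their replicate numbers 1 to 11 serve here as names. The follicles came from CD-1 mice, an outbred stock with no genetic modification named in the labels. Each was cultured alone for 8 days inside an alginate bead, which holds it in its round form, and the antral follicles were then freed from it and moved to medium with hCG at 1.5 IU/ml with epidermal growth factor (EGF) at 10 ng/ml, recombinant follicle-stimulating hormone at 10 mIU/ml and serum at 10%. All 11 follicles shared that medium and belong to batch 1. The labels do not tie follicles to animals, so whether follicles of 1 mouse are more alike was not tested, and the p-values measure the spread between follicles.

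By binding the luteinizing hormone receptor, hCG starts the program that ends in ovulation. A burst of immediate early genes in the granulosa cells is followed by EGF-like ligands, by enzymes and binding proteins that build the matrix around the oocyte, by the progesterone receptor and its targets, and by proteases that open the follicle wall. The granulosa cells then give up estrogen synthesis and turn into luteal cells that make progesterone. A follicle also holds an oocyte and may carry theca, stromal, vascular and immune cells on its surface.

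The total count per library ranged from 714844 in replicate 7 to 2667130 in replicate 2, with a median of 1755430, and 11562 to 13785 genes had at least 1 count. Mitochondrially encoded RNA made up 8.59% to 11.2% of the counts. Of the granulosa markers, Inha and Amhr2 were present in all 11 follicles. Fshr and Foxl2 had few counts, and Fshr was at 0 in replicate 4. Inha, a subunit of inhibin, was between 8110 and 17324 CPM (counts scaled to a library of 1000000) and Amhr2, the receptor of anti-Müllerian hormone, between 12.1 and 24.8 CPM. Of the oocyte markers, Gdf9 had counts in all 11 follicles. Replicate 4 stood apart from the others. Its median correlation of log2 CPM with the other follicles was 0.920, the lowest, against 0.932 to 0.964 for the other 10. It was the lowest follicle by at least 2-fold in 46 genes and the highest by that margin in 8, against at most 31 and 4 genes for any other follicle, so the main results that rest on it are also given without it.

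Most genes were about as variable as other genes of like abundance, and a minority spread much further. The spread of each gene was measured as the ratio of its residual deviance to its degrees of freedom, given the dispersion that edgeR's trend assigns to its abundance. Genes were called beyond the trend at a Benjamini-Hochberg adjusted p under 0.05. Of 5598 genes tested, 357 were called, a share of 6.38%, and 170 of these stayed tested and called whichever follicle was left out. The others include genes that failed the filter on low counts in the smaller set. Kazald1, for instance, was lost without replicate 1, 2, 4, 6 or 9, each time because it was not tested. The median ratio over all genes tested was 0.633, and the highest was 22.4, for Nr4a1. These calls treat the trend as known. When the scatter of genes around the trend was itself allowed for (edgeR's F distribution with a robust prior of 4.44 degrees of freedom), 0 genes were called, 363 had an unadjusted p under 0.05, and Nr4a1 again had the smallest adjusted p, at 0.331. A looser filter, chosen after the data were seen, which asks for about 10 counts in only 3 follicles, admitted 8632 genes and called 654 of them (7.58%). Of the 357 genes, 278 were among those 654. Fewer cells of a type and less RNA per cell cannot be told apart in whole follicles.

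**Figure D1:**
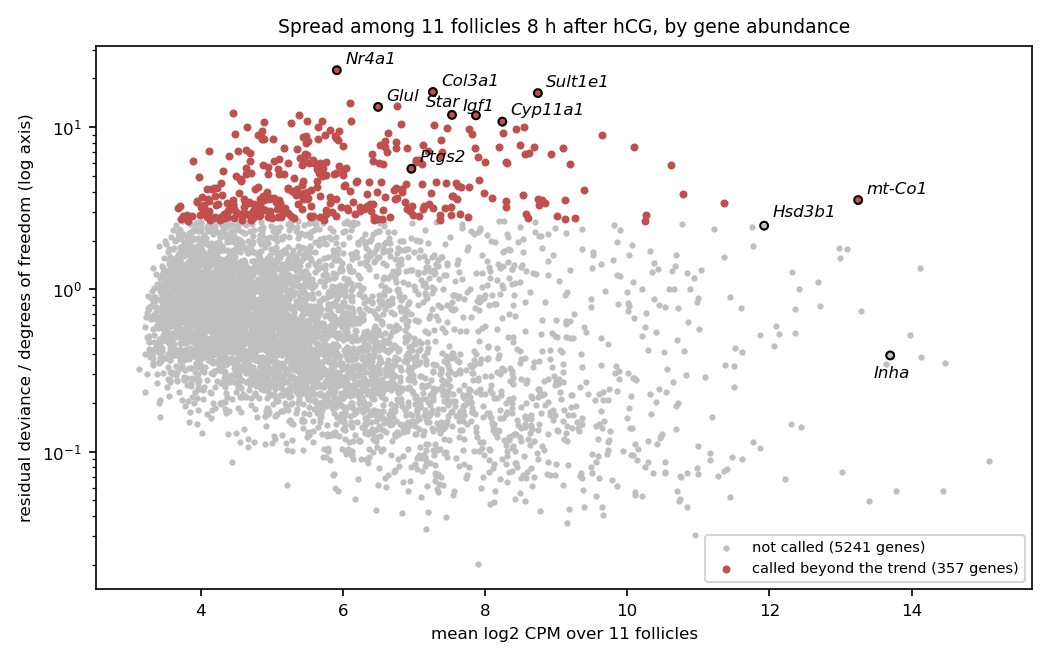
Spread of each of 5598 genes among the 11 follicles, as residual deviance over degrees of freedom (log axis), against its mean log2 CPM. Red points are the 357 genes called beyond the trend and grey points the rest; Nr4a1 lies highest with a ratio of 22.4, and Inha and Hsd3b1 are among the genes not called.

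Several genes were steady beside this, some of them central to granulosa cells. Inha had a ratio of 0.391 and its highest and lowest follicles differed 2.14-fold. The heat shock protein Hspa8 stayed between 2079 and 2761 CPM, with a ratio of 0.0706. Nr5a1, the nuclear receptor that drives steroidogenic genes, had a ratio of 0.226, and the EGF-like ligand Btc one of 0.806. The common biological coefficient of variation over the 11 follicles was 26.3%, beside 30.6% in the 10 follicles at 4 h and 28.0% in the 10 at 1 h of the same batch, fitted apart and not tested against each other. The fits rest on unlike gene sets, 5598 genes at 8 h, 5077 at 4 h and 3158 at 1 h. Median totals were 1755430, 1789240 and 767264 counts, so the values are not directly comparable.

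The gene with the largest spread was Nr4a1, an orphan nuclear receptor that hCG induces as an immediate early gene, with 1 follicle far above the rest. Nr4a1 was at 1168 CPM in replicate 4, against 13.9 CPM in replicate 3, the lowest, and 122 CPM in replicate 10, the second highest. The median of all 11 was 48.5 CPM. No other follicle came near replicate 4, which was 9.57-fold above replicate 10. Setting each follicle in turn against the other 10 (edgeR's quasi-likelihood test, adjusted jointly over 61578 follicle and gene pairs), this was the single pair called, 0.00162% of all, with a log2 fold change of 4.54 ± 0.46 (SE) and an adjusted p of 0.0114, while 3031 pairs had an unadjusted p under 0.05. DESeq2 called 133 pairs, 69 of them in replicate 4, and gave Nr4a1 in replicate 4 an adjusted p of 1.9e-07. Without replicate 4 in the data, 0 pairs were called by edgeR. Nr4a1 stayed called beyond the trend without replicate 4, so the other 10 follicles also differed in it.

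The related receptors Nr4a2 and Nr4a3 were highest in the same follicle. Nr4a2 was at 18.2 CPM in replicate 4, against at most 1.50 CPM elsewhere, and was at 0 in 5 follicles. Nr4a3 was at 9.28 CPM in replicate 4, against at most 1.63 CPM elsewhere. Nr4a2 rests on 54 counts over all 11 follicles and Nr4a3 on 37, and neither gene passed either filter. With all batch 1 follicles scaled together, Nr4a1 in replicate 4 was at 1121 CPM, above the 90.3 to 488 CPM of the 4 h follicles and below the 3998 to 12550 CPM of the 1 h follicles. Nr4a2 was at 17.4 CPM in replicate 4 on that scale, beside 0 to 6.10 CPM at 4 h and 59.9 to 933 CPM at 1 h. Egr1 was at 28.6 CPM in replicate 4, below the 732 to 1797 CPM of the 4 h follicles. These levels are set side by side with no test between times.

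Nr4a1 lies on chromosome 15 (101254269 to 101274795, plus strand, GRCm38). The bases just before its RefSeq start are shown because Nr4a1 is a textbook target of cyclic AMP signaling, the pathway of the hCG receptor. That start lies within the span just given, so the window is not upstream of the whole span. Capitals mark each match to TGACG, the half-site of the cyclic AMP response element, in either orientation (its reverse reads CGTCA), in the 250 bases at chr15:101266596-101266845 of GRCm38.p6.
Nr4a1: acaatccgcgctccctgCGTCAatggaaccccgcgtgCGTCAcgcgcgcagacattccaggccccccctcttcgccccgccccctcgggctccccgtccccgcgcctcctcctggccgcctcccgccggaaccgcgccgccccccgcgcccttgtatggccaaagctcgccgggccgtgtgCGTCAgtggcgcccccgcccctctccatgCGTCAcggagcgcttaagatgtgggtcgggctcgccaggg
The window holds 4 matches. Of 32851 windows of the same length in the RefSeq promoter table, 17.8% held at least 1 match and 0.137% held 4 or more. The match is one of letters only.

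Other immediate early genes split in replicate 4, some lowest and some highest there. Egr1, a zinc finger factor, was at 29.8 CPM in replicate 4, against 106 to 507 CPM in the other 10, and Junb, of the AP-1 family, was at 45.6 CPM, against 154 to 566 CPM. Fos was at 1.55 CPM in replicate 4, against 2.82 to 15.0 CPM, and Ier2 at 29.4 CPM, against 70.2 to 170 CPM. In all 4 genes replicate 4 was the lowest follicle. Egr1 (ratio 4.74, adjusted p = 3.4e-05) and Junb (3.68, adjusted p = 0.0018) were called beyond the trend, and neither stayed called without replicate 4. Btg2, an antiproliferative early gene, went with neither set. It was at 240.2 CPM in replicate 4 and ranged from 33.9 CPM in replicate 3 to 407 CPM in replicate 6 (ratio 5.94). Of the 30 genes on the immediate early list, 12 passed the filter and 5 of these were called (Nr4a1, Btg2, Per1, Egr1 and Junb), or 41.7% beside 6.38% of all genes tested. The median ratio of the 12 was 2.49. Without replicate 4, 11 were tested and 3 called (Nr4a1, Btg2 and Per1). Replicate 4 was highest in 59 and lowest in 94 of the 357 genes called in all. Over the 28 list members with at least 10 counts, replicate 4 was the highest follicle in 10 and the lowest in 8. Besides the Nr4a genes, the highest were Jun, Egr2, Egr3, Ier5, Klf4, Sik1 and Crem, a cyclic AMP responsive modulator, by smaller margins. Jun, the AP-1 partner of Fos, was at 121 CPM in replicate 4, against 37.1 to 77.2 CPM in the other 10, and Crem at 30.6 CPM, against 5.40 to 22.4 CPM. Neither was called beyond the trend (ratios 1.71 and 2.53).

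**Figure D2:**
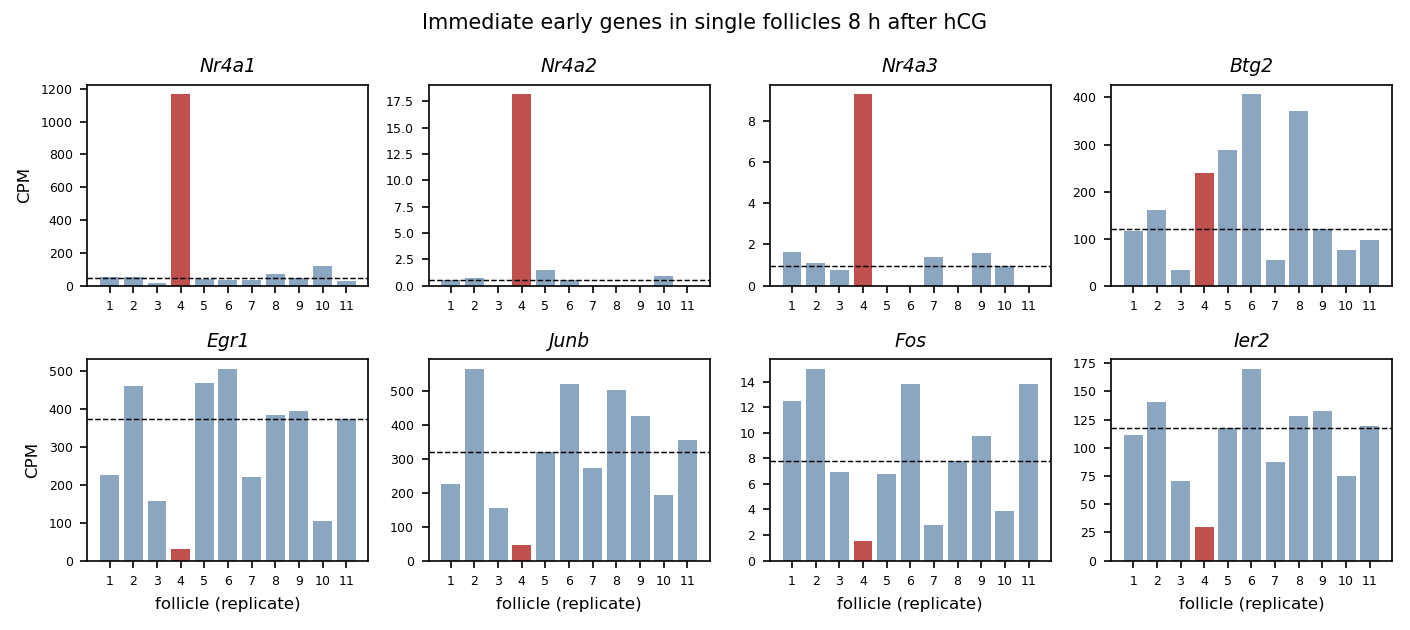
CPM of 8 immediate early genes in each of the 11 follicles (bars; red is replicate 4, the dashed line is the median). Replicate 4 is the highest follicle in Nr4a1, Nr4a2 and Nr4a3 and the lowest in Egr1, Junb, Fos and Ier2.

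Across the called genes, the follicles lay along 1 main gradient. A principal component analysis of the 357 genes, which describes how they vary together and is not a test, put 43.3% of the variance on its first component, 18.0% on the second and 10.4% on the third. Replicate 4 had the lowest score on the first (-22.6), followed by replicates 3 (-13.3), 1 (-11.9) and 7 (-8.13). Replicates 10, 11 and 5 lay between 0.33 and 5.44, and replicates 2, 9, 6 and 8 between 10.7 and 12.6. The widest steps in this order lay between replicates 4 and 3 and between replicates 7 and 10. Without replicate 4 the first component held 40.8% of the variance, replicates 3, 7 and 1 were lowest and replicate 8 highest, and 7 of the 10 leading genes at its high end and 5 of the 10 at its low end were shared.

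At the high end were Sult1e1, which sulfonates and so inactivates estrogens, Gsta4, a glutathione transferase, Glul, the glutamine synthetase, Rnf125, a ubiquitin ligase, Star, Sfrp4, a secreted Wnt antagonist, Adamts1, the metallothionein Mt1, Bnip3 and Smarca1. Sult1e1 ranged most widely, from 34.7 CPM in replicate 3 through a median of 714 CPM to 3738 CPM in replicate 6, a 108-fold range (ratio 16.2). Replicates 1, 3 and 4 were at 34.7 to 75.4 CPM, replicate 7 at 254 CPM, and the other 7 follicles at 711 CPM or above. Gsta4 had its lowest values in replicates 4 and 3, at 10.4 and 11.6 CPM, and its highest in replicate 6, at 553 CPM. Glul spanned 8.90 CPM in replicate 4 to 422 CPM in replicate 6.

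The low end held Igf1, Akr1c14, a hydroxysteroid dehydrogenase, Enc1, which binds actin, Pik3r1, a regulatory subunit of the PI3 kinase, Gcsh of the glycine cleavage system, Igfbp4, which binds insulin-like growth factors, Cotl1, Mid1ip1, Fabp7 and Prss23. Igf1, the growth factor of growing follicles, was at 868, 824 and 691 CPM in replicates 4, 1 and 3, at 400.3 CPM in replicate 7, and at 33.3 CPM in replicate 8, the lowest (ratio 11.9, 26.1-fold range). Enc1 was at 873 to 1213 CPM in replicates 1, 3, 4 and 7 and at 114 to 551 CPM in the other 7. Igfbp4 was at 1091 CPM in replicate 4, against 53.8 to 347 CPM in the other 10. The component was computed from genes chosen for their spread, so the order is a description.

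**Figure D3:**
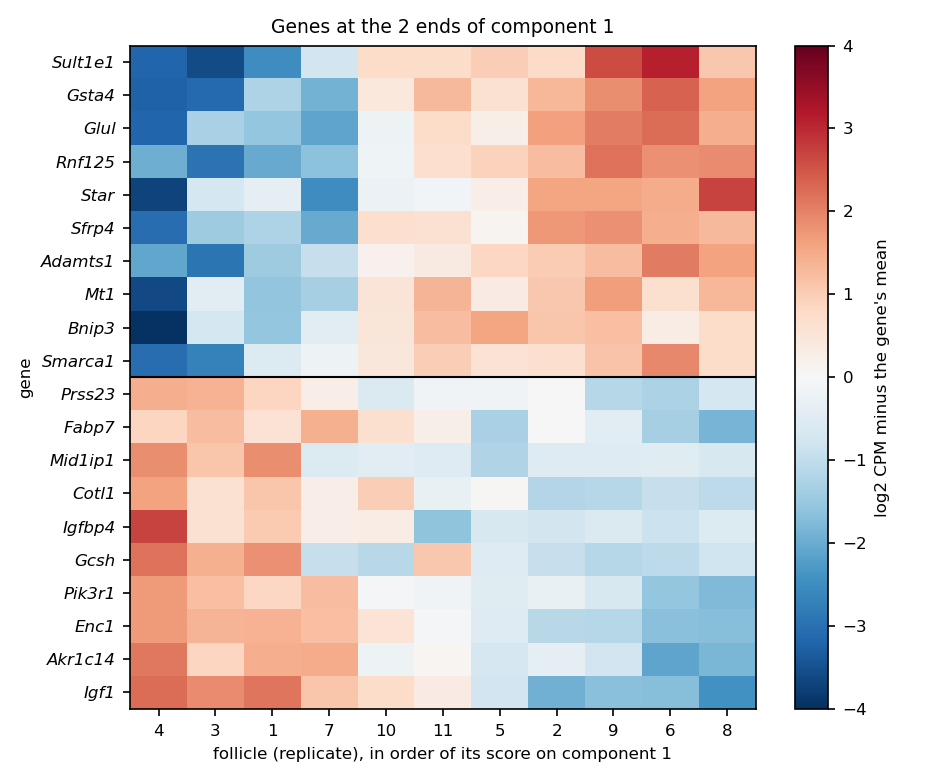
Log2 CPM of the 10 leading genes at each end of the first component, minus each gene's mean (red higher, blue lower), in the 11 follicles ordered by their score. Replicates 4, 3, 1 and 7 on the left are low in the upper genes and mostly high in the lower ones, except that replicate 7 is low in Gcsh and Mid1ip1. Replicates 2, 9, 6 and 8 on the right are high in the upper genes.

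Sult1e1 lies on chromosome 5 (87575969 to 87591594, minus strand, GRCm38), and its upstream bases are shown because it led the gradient. Capitals mark AAGGTCA, the site of the steroidogenic nuclear receptors of the NR5A family and the core of the NR4A site, in either orientation (its reverse reads TGACCTT), in the 250 bases at chr5:87591612-87591861 of GRCm38.p6, read on the minus strand.
Sult1e1: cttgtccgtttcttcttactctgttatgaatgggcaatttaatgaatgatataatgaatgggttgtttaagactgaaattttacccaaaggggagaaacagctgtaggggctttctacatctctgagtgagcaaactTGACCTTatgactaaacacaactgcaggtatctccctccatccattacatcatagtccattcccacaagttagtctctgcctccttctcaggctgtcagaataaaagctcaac
This window held 1 match, as did at least that many in 4.08% of the 32851 windows.

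Star and Cyp11a1, of progesterone synthesis, varied strongly and rose together, while Hsd3b1 did not follow them. Star (chromosome 8, 25806555 to 25815982, plus strand, GRCm38), which carries cholesterol into mitochondria, was at 17.0 CPM in replicate 4 and 40.9 CPM in replicate 7, had a median of 215 CPM and reached 1511 CPM in replicate 8, an 88.8-fold range (ratio 11.8, adjusted p = 6.3e-18). Cyp11a1, which cleaves the side chain of cholesterol, ranged from 66.3 CPM in replicate 7 through 356 CPM to 2000.3 CPM in replicate 8 (ratio 10.8). Hsd3b1, which makes progesterone from pregnenolone, ran the other way. It was at 1511 CPM in replicate 8, the lowest, and at 7369 CPM in replicate 4, the highest, and was not called (ratio 2.47, adjusted p = 0.0805). Sfrp4, at 35.6 to 1081 CPM, and the prolactin receptor gene Prlr, at 13.5 to 257 CPM, were also called and lowest in replicate 4. Of 21 genes on the luteinization list 17 were tested and 4 called, or 23.5% beside 6.38% of all genes tested, with a median ratio of 1.20.

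Across the 11 follicles, Star and Cyp11a1 rose together, with a Pearson r of 0.78 (permutation p = 0.0036, adjusted p = 0.028 over 31 gene pairs) and a Spearman rho of 0.84 (p = 0.0025, adjusted p = 0.026). Without replicates 4 and 8, the follicles farthest from the median of Star, r was 0.69. Star and Hsd3b1 ran against each other, with r = -0.73 (permutation p = 0.01, adjusted p = 0.036) and rho = -0.77 (p = 0.0075, adjusted p = 0.033), and r = -0.54 without replicates 4 and 8. Star and Cyp19a1, the aromatase, had rho = -0.85 (permutation p = 0.0018, adjusted p = 0.026) but r = -0.65 (p = 0.032, adjusted p = 0.075), and r = -0.52 without the same follicles. Cyp19a1 was at 6.01 to 6.91 CPM in replicates 5, 6 and 8 and at 23.2 to 49.4 CPM in the other 8.

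**Figure D4:**
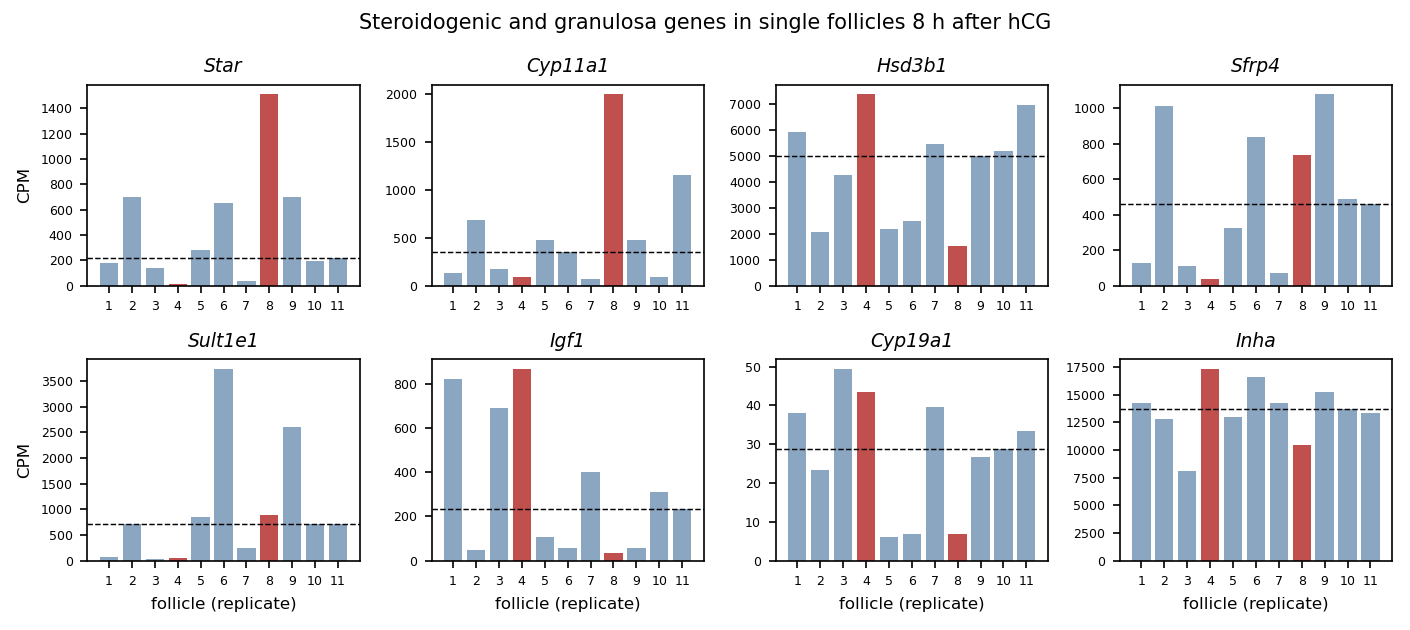
CPM of 8 steroidogenic and granulosa genes in each of the 11 follicles (bars; red are replicates 4 and 8, the dashed line is the median). Replicate 8 is highest in Star and Cyp11a1 and lowest in Hsd3b1 and Igf1, and Inha stays between 8110 and 17324 CPM.

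A wider set of genes followed Star. In edgeR's quasi-likelihood test of each gene on Star (slope per SD of Star's log2 CPM, which is 1.87), 141 of 5597 genes rose with Star (2.52%) and 76 fell (1.36%). The median slope of all genes was 0.00. This count depended on single follicles. It was 37 genes without replicate 4, 125 without replicate 2, 129 without replicate 9 and 133 without replicate 8. Whichever follicle was left out, 24 genes stayed tested and called, 19 rising and 5 falling. Without replicate 4, of the 211 genes still tested 210 had the same sign. These genes were chosen by a fit that shares the remaining follicles, so the signs are a description and no separate check.

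Among those 24 that rose were Sat1, which breaks down polyamines (slope 0.80 ± 0.08, SE, adjusted p = 0.00068), Timp1, an inhibitor of metalloproteinases (0.81 ± 0.10), Glul (1.80 ± 0.23), Sfrp4 (1.58 ± 0.21), the lysosomal protease Ctsl (0.83 ± 0.12), Socs3, a feedback inhibitor of cytokine signaling (1.18 ± 0.16), and Errfi1, a feedback inhibitor of the EGF receptor (0.95 ± 0.13). Those that fell were Enc1 (-1.20 ± 0.20), Akr1c14 (-1.17 ± 0.18), Pik3r1 (-1.01 ± 0.14), Prkar2b, a regulatory subunit of protein kinase A (-0.85 ± 0.11), and Inhba, the beta subunit of activin A (-0.65 ± 0.12). Sat1 was at 74.7 and 73.9 CPM in replicates 7 and 4 and at 453 CPM in replicate 8, which also had the highest Star. Igf1 fell with Star in all 11 follicles (-1.66 ± 0.34, adjusted p = 0.019) and still did without replicate 4 (adjusted p = 0.037), but its call was lost without replicate 8. Nr4a1 fell with Star (-1.17 ± 0.27, adjusted p = 0.027) but not without replicate 4, where its slope was 0.19 ± 0.23 (adjusted p = 0.804).

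The other reference measures carried few genes with them. With Nr4a1, 1 gene rose (RP23-376B1.4, 0.57 ± 0.08, adjusted p = 0.024) and 0 fell, with 463 genes at an unadjusted p under 0.05. The count was 0 without replicate 4, 6, 7 or 8 and 2 without replicate 1, 3 or 10, and DESeq2 called 27. With Ptgs2, the inducible prostaglandin synthase, 1 gene rose (Akr1b8, an aldo-keto reductase) and 0 fell. That count was 0 without replicate 2, 5, 7, 8 or 10, 3 without replicate 3 and 2 without replicate 6, and DESeq2 called 136. With Gdf9, standing for the oocyte, edgeR's test called 0 genes, 398 had an unadjusted p under 0.05, DESeq2 called 10, and 1 was called without replicate 2.

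Of 17 EGF-like ligands and feedback genes of their pathway, 9 were tested and 3 called, 33.3% beside 6.38% of all genes tested, and their median ratio was 2.17. Errfi1 was at 149.7 CPM in replicate 4 and between 342 and 1763 CPM in the other 10. Areg, an EGF-like ligand, was at 9.26 CPM in replicate 3 and 81.8 CPM in replicate 8 and lost its call without either. Ereg, a further such ligand, passed the looser filter alone, where it was called (ratio 9.33). It was at 3.09 CPM in replicate 4, 30.9 CPM in replicate 3 and 365 CPM in replicate 8. Btc, of the same family, was not called and was at 365 CPM in replicate 4 and 128 CPM in replicate 2, its highest and lowest values.

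Genes of the expanding cumulus matrix were uneven as well, with 4 of 7 tested genes called from a list of 13. That is 57.1% beside 6.38% of all genes tested, with a median ratio of 3.77 beside 0.633. Vcan, the proteoglycan versican, was at 368 CPM in replicate 4 and 6132 CPM in replicate 6, with a median of 1569 CPM. Ptgs2 was at 17.7 CPM in replicate 3, 60.0 CPM in replicate 4 and 345 CPM in replicate 5. Ptx3, a cross-linker of hyaluronan, had a different order, with 9.37 CPM in replicate 2 and 128 and 142 CPM in replicates 4 and 5. Cd44, the hyaluronan receptor, was at 65.0 CPM in replicate 4 and 539 CPM in replicate 3. Tnfaip6, which joins proteins to hyaluronan, was not called (117 to 456 CPM, ratio 1.29). Has2, the hyaluronan synthase, passed the looser filter alone and was called there, with 0.749 CPM in replicate 2 and 65.6 CPM in replicate 1. Ptgs2 and Tnfaip6 had r = 0.70 (permutation p = 0.021, adjusted p = 0.065), rho = 0.58 (p = 0.067, adjusted p = 0.159) and r = 0.14 without replicates 3 and 5.

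Several progesterone receptor targets differed widely between follicles. Of 18 genes on that list 8 were tested and 4 called, or 50.0% beside 6.38% of all genes tested (median ratio 2.80 beside 0.633). With Star, 3 of the 8 rose (Ctsl, Adamts1 and Mt1), and only Ctsl did without replicate 4. Adamts1, a protease that cleaves versican, was at 105 CPM in replicate 3, 188 CPM in replicate 4 and 298 CPM in replicate 1, with a median of 1027 CPM and 3380.1 CPM in replicate 6. Adcyap1, which encodes the peptide PACAP, was at 0 in replicates 1, 4 and 7 and at 59.9 to 77.8 CPM in replicates 2, 6, 8 and 9. The metallothioneins Mt1 and Mt2 were lowest in replicate 4, at 28.6 and 4.64 CPM, and Mt1 reached 1162 CPM in replicate 9 and Mt2 485 CPM in replicate 8. The receptor itself, Pgr, had 44 counts in all and was at 0 in 4 follicles (replicates 1, 3, 4 and 10). Pgr and Adamts1 had r = 0.83 (permutation p = 0.0027, adjusted p = 0.028) and rho = 0.81 (p = 0.004, adjusted p = 0.03), and r = 0.76 without replicates 1 and 4.

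Proteases and their inhibitors had 8 of 14 tested genes called from a list of 23. That is 57.1% beside 6.38% of all genes tested, with a median ratio of 3.37 beside 0.633. Replicate 4 was the lowest follicle in 12 of the 21 with at least 10 counts, beside 94 of the 357 genes called in all. Serpinb2, an inhibitor of plasminogen activators, was at 18.95 CPM in replicate 4 and 719.7 CPM in replicate 8, against at most 232 CPM in the other 9. Adamts4 was at 13.9 CPM in replicate 4 and 214 CPM in replicate 8. F3, the tissue factor, was at 18.95 CPM in replicate 4, against 61.7 to 200.1 CPM, and lost its call without that follicle. Mmp11 went the other way, at 123 CPM in replicate 4, against 19.8 to 47.2 CPM. In the fit with all 11 follicles, 7 of these 14 genes rose with Star and Mmp11 fell, beside 2.52% and 1.36% of all genes tested. Without replicate 4, Timp1 and Ctsl rose and 0 fell by the same edgeR test, and the slope of Mmp11 was -0.16 (adjusted p = 0.695). The urokinase Plau was not called beyond the trend (ratio 1.26), at 214 CPM in replicate 4 and 786 CPM in replicate 2.

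Genes of glycolysis and the hypoxia response tended to follow one another from follicle to follicle. Of 27 on the list 20 were tested and 6 called, or 30% beside 6.38% of all genes tested (median ratio 2.14 beside 0.633). The mean pairwise Pearson r among the 20 was 0.83 over the 11 follicles, beside 0.00 for all genes tested. It describes values that share the same libraries and scaling. Without replicate 4 the mean r was 0.68 and 2 of the 20 were called. Vegfa, a hypoxia target with 58 counts, did not follow Bnip3 (r = 0.01, permutation p = 0.964, adjusted p = 0.964, rho = -0.07, p = 0.838, adjusted p = 0.928, and r = 0.24 without replicates 10 and 11). Replicate 4 was the lowest follicle in 21 of the 26 measured and replicate 5 the highest in 14. Over the 357 genes called in all, replicate 4 was lowest in 94 and replicate 5 highest in 33. The summed level was 14567 CPM in replicate 4, 41240 CPM at the median and 57101 CPM in replicate 5. Bnip3, a receptor for the removal of mitochondria, was at 13.9 CPM in replicate 4, against 78.6 to 696 CPM (ratio 7.47, called whichever follicle was left out). Pfkl, a phosphofructokinase, was at 79.3 CPM in replicate 4, against 232 to 962 CPM, and lost its call without it. Ldha, lactate dehydrogenase A, had 2933 CPM in replicate 4, against 5314 to 14096 CPM, and was not called (ratio 1.77).

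Cholesterol synthesis genes also followed one another, within a narrow range. Its 23 tested genes had a mean pairwise r of 0.56, a median ratio of 0.704 and 0 calls beyond the trend by edgeR, with 1 gene at an unadjusted p under 0.05 and 3 called with DESeq2's trend. Replicate 1 was the highest follicle in 13 of 25 and replicate 2 the lowest in 11, and the summed level ran from 4468 CPM in replicate 2 to 8700 CPM in replicate 1. Hmgcs1 and Idi1, of the mevalonate pathway, had r = 0.85 (permutation p = 0.002, adjusted p = 0.028) and rho = 0.79 (p = 0.0059, adjusted p = 0.03), and r = 0.90 without replicates 2 and 8. Cell cycle genes had 0 calls of 14 by edgeR, 4 at an unadjusted p under 0.05 and 2 called with DESeq2's trend, and a mean pairwise r of 0.37. Replicate 3 was the lowest follicle in 16 of the 31 measured and replicate 4 the highest in 10. The heat shock list had 0 of 10 called by edgeR, 0 at an unadjusted p under 0.05, 0 called with DESeq2's trend and a median ratio of 0.304. The folding and amino acid stress list had 2 of 17 called (11.8% beside 6.38% of all genes tested). At that share of all genes, lists of 10 to 23 genes would hold few calls. Over the 357 genes called, replicate 1 was highest in 12, replicate 2 lowest in 49, replicate 3 lowest in 77 and replicate 4 highest in 59.

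On the list of 24 granulosa genes, 13 were tested and 5 called, or 38.5% beside 6.38% of all genes tested (median ratio 2.31 beside 0.633). The called genes were Sult1e1, Igf1, Grem1, Gata4 and Ccnd2. Sult1e1 stands on that list but lay at the opposite end of the first component from Igf1, and it was listed at 0 in every 1 h follicle of the batch and at 161 to 14525 CPM in the 4 h follicles. Grem1, a BMP antagonist, was at 143 CPM in replicate 4 and 112 CPM in replicate 1, against 10.9 CPM in replicate 2, the lowest. Gata4, a transcription factor of granulosa cells, was at 238 CPM in replicate 4 and 177 CPM in replicate 3, against 49.5 to 97.6 CPM in the other 9. Inhba spanned 393 to 1838 CPM and was not called (ratio 2.31, adjusted p = 0.127). Fshr and Foxl2 had few counts, with at most 6.65 and 6.94 CPM.

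Replicate 8 stood apart in genes of the stroma. Col3a1 (chromosome 1, 45311538 to 45349706, plus strand, GRCm38), a chain of type III collagen, was at 2232 CPM in replicate 8, against 24.0 to 338 CPM in the other 10 (ratio 16.5, called whichever follicle was left out). Col1a1 was at 218 CPM in replicate 8, against 1.41 to 43.2 CPM, and Col1a2 at 206 CPM, against 1.16 to 62.3 CPM. Dcn, the proteoglycan decorin, was at 336 CPM, against 1.55 to 37.5 CPM, and Mmp2 at 69.8 CPM, against 0 to 9.01 CPM. Replicate 8 was the highest follicle in all 5. Against the other 10 follicles, Col3a1 in replicate 8 had a log2 fold change of 3.80 ± 0.75 and was not called (adjusted p = 0.571). Col1a1 and Col1a2 had r = 0.89 (permutation p = 0.00057, adjusted p = 0.018) and rho = 0.85 (p = 0.0019, adjusted p = 0.026), and r = 0.87 without replicates 7 and 8.

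The theca and stroma list summed to 3345 CPM in replicate 8, against 389.9 to 881 CPM in the other 10. Col3a1 alone made up 2232 CPM of that sum. The mean log2 CPM of the 5 tested members, each centred on its own mean, was highest in replicate 2 (0.43). It was 0.26 in replicate 1 and 0.25 in replicate 8. Replicate 8 was highest in 10 of the 17 members with at least 10 counts, and replicate 4 was lowest in 8 of them. Over the 357 genes called, replicate 8 was highest in 49 and replicate 4 lowest in 94. Cyp17a1, which marks theca cells by androgen synthesis, was at 0 in 5 follicles and at 2.08 CPM in replicate 8, and its highest value was 4.61 CPM in replicate 6. The same replicate 8 held the highest Star, Cyp11a1, Timp1 and Serpinb2, and Col3a1 rose with Star with and without replicate 4 (1.69 ± 0.26, adjusted p = 0.0047, and 1.49 ± 0.27, adjusted p = 0.037), while its call was lost without replicate 8. The part of stromal cells in the Star gradient was not tested.

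**Figure D5:**
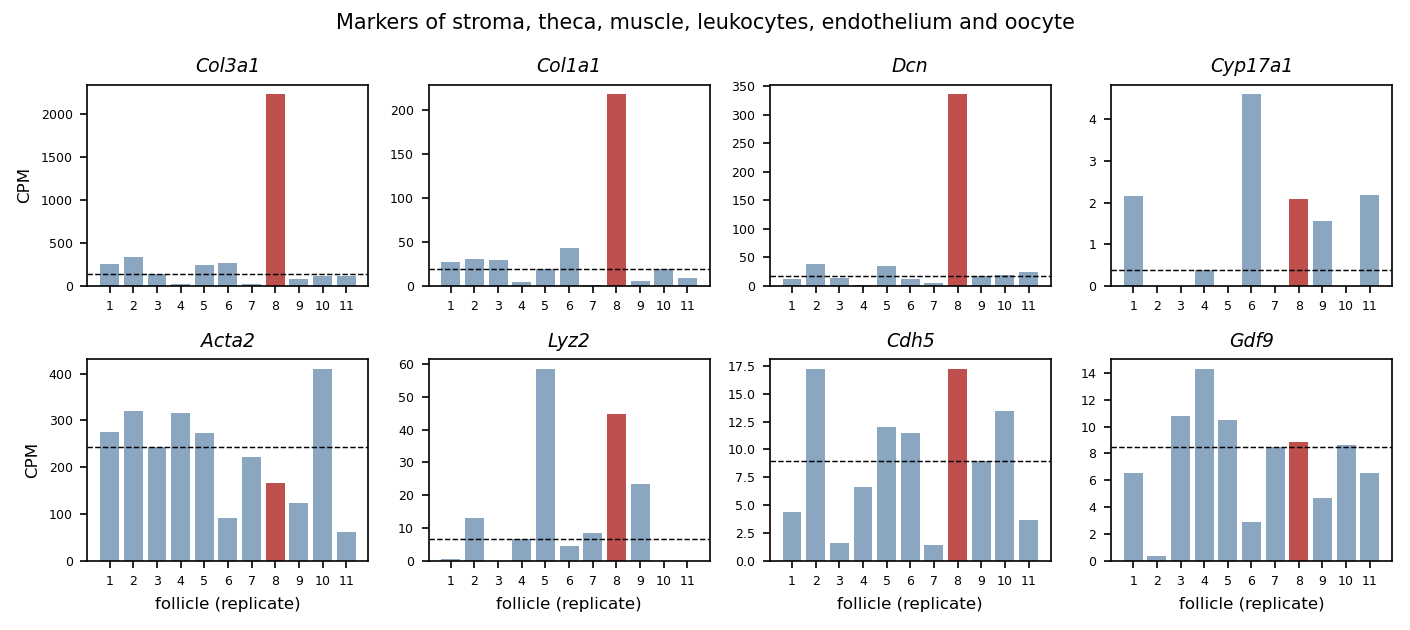
CPM of markers of stroma (Col3a1, Col1a1, Dcn), theca (Cyp17a1), contractile cells (Acta2), leukocytes (Lyz2), endothelium (Cdh5) and the oocyte (Gdf9) in each of the 11 follicles (bars; red is replicate 8, the dashed line is the median). The 3 stromal genes are highest in replicate 8, and Lyz2 is highest in replicates 5 and 8.

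Markers of other cells differed between follicles in other orders. Acta2, the smooth muscle actin, was called (ratio 2.92, adjusted p = 0.022), with 61.0 CPM in replicate 11, 91.0 CPM in replicate 6 and 410.4 CPM in replicate 10, and it lost its call without any of these 3. Lyz2, the lysozyme of macrophages, was at 58.6 and 44.8 CPM in replicates 5 and 8, at 23.5 CPM in replicate 9 and at 0 in replicates 3, 10 and 11. The 12 leukocyte markers summed to 0.961 to 73.6 CPM, and Ptprc, the pan-leukocyte antigen CD45, had counts in replicate 8 alone (11 counts, 5.73 CPM). Cdh5, a cadherin of endothelial cells, was at 1.41 to 17.2 CPM. Keratin 8 (Krt8) was at 40.1 CPM in replicate 1, against 3.37 to 24.0 CPM in the other 10.

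No oocyte marker passed the main filter. The looser filter, chosen after the data were seen, admitted 8 of them and 7 were called there, beside 7.58% of all genes it admitted. The 7 were Gdf9, Zp2, Padi6, H1foo, Oog1, Zar1 and Bcl2l10. A gene can pass that filter through the follicles where it is high, so these calls are a description. The 22 markers in the table summed to 15.7 CPM in replicate 2, to 76.6 CPM at the median and to 121 CPM in replicate 1. Replicate 2 was lowest in 9 of the 21 markers with at least 10 counts. Replicate 7, the smallest library, was also lowest in 9, with a sum of 73.3 CPM, near the median. Over the 357 genes called, replicate 2 was lowest in 49 and replicate 7 in 15. Gdf9, a growth factor secreted by the oocyte, was at 0.375 CPM in replicate 2, 2.88 CPM in replicate 6 and 14.3 CPM in replicate 4, and Zp3, of the zona pellucida, between 0 and 8.46 CPM. Gdf9 and Star had r = -0.55 (permutation p = 0.08, adjusted p = 0.145), rho = -0.53 (p = 0.099, adjusted p = 0.204) and r = -0.55 without replicates 2 and 6.

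Over the 31 gene pairs measured, 9 had an adjusted p under 0.05 by Pearson, 9 by Spearman and 7 by both. The 7 were Fos with Junb, Pgr with Adamts1, Star with Cyp11a1, Star with Hsd3b1, Acta2 with Tagln, Col1a1 with Col1a2, and Hmgcs1 with Idi1. The Pearson count was 1 without replicate 2, 2 without replicate 4, 3 without replicate 6 and 5 without replicate 10. Nr4a1 and Nr4a2 had r = 0.90 (permutation p = 0.01, adjusted p = 0.036) but rho = 0.60 (p = 0.053, adjusted p = 0.15), and r was 0.32 without replicates 3 and 4. Nr4a1 and Star had r = -0.45 (permutation p = 0.164, adjusted p = 0.231), rho = 0.13 (p = 0.711, adjusted p = 0.848) and r = 0.24 without replicates 3 and 4.

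The second component was led by genes with clone names and by olfactory and vomeronasal receptor genes. Of the 50 genes with the largest loadings at its high end, 23 were of these kinds, as were 71 of the 357 genes called and 300 of the 5598 tested. Olfr1173, an olfactory receptor gene, was at 403 CPM in replicate 7 and 18.7 CPM in replicate 2, the follicles with the smallest and the largest total count, with a median of 139 CPM. With the log2 total count, 6 genes fell (0.107% of those tested) and 0 rose. The count was 0 without replicate 2, 3, 4, 5, 7, 8 or 10 and 17 without replicate 9, and DESeq2 called 32 genes. The low end of the second component held Nr4a1, Btg2, H2-Q10, Nid1 and Col3a1.

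Past Nr4a1, the next follicle and gene pairs missed the threshold in edgeR's quasi-likelihood test of 1 follicle against the other 10. Glo1, which detoxifies methylglyoxal, was at 23.0 CPM in replicate 6, against 97.4 to 139 CPM in the other 10, a log2 fold change of -2.25 ± 0.28 (adjusted p = 0.067). Angpt2, an antagonist of the vascular receptor Tie2, was at 87.1 CPM in replicate 5, against 13.8 to 28.3 CPM (2.11 ± 0.29, adjusted p = 0.11). Zbed3 was at 21.7 CPM in replicate 2, against 175 to 551 CPM (-3.94 ± 0.55, adjusted p = 0.11). With no filter on low counts, edgeR called 11 pairs, among them Nr4a1, Nr4a2 and Ablim1 higher in replicate 4, Zbed3 in replicate 2, Angpt2 in replicate 5, Glo1 in replicate 6, and Dcn and Mmp2 in replicate 8.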

How the data were processed

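RNA of single follicles was amplified by Smart-Seq2 and made into Nextera XT libraries, which keep no strand, per the labels' protocols, so reads of overlapping antisense genes cannot be told apart. The submitters' processing notes name HISAT2, Partek, DESeq2 and GRCm38, with versions not given in the sources used here. The authors deposited whole-number read counts per gene adjusted for batch (ComBat-seq, per the name of the deposited table, settings not given) and TPM values (scaled by gene length and library size) made from the corrected counts, per that table's name. The adjustment can change single counts and zeros. The deposited tables hold 10 columns that match no sample described and were not used, and the authors' deposited table of comparisons was not used.

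The 11 follicles at 8 h were scaled by edgeR's TMM factors, computed on the genes that passed the filter with full library totals, and CPM uses both. Genes passed filterByExpr with 1 group (minimum count 10), which left 5598 of 25147. Analyses used R 4.3.3, edgeR 4.0.16, limma 3.58.1, DESeq2 1.42.0 and scran 1.30.0. The spread was tested with 10 degrees of freedom by chi-square on the deviance at the trended dispersion. One follicle against the other 10, and slopes on a reference measure, used glmQLFit and glmQLFTest. Correlations used log2 CPM with a prior count of 2 and 100000 permutations, two-sided. On simulated counts for 5598 genes, the spread test recovered 38% of genes at 4 times and 91% at 10 times the dispersion.

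Genes named were the 10 with the largest ratio that stayed called when any 1 follicle was left out, the 10 largest that did not, up to 3 called genes of each list, a set list, both genes of each pair, and those with the smallest p or largest loading in each test, at a mean log2 CPM of at least 4. Others were named after their values were seen: examples within lists, the neighbours of a pattern, and genes in the closing section. The members, lists, pairs and tests were chosen with earlier results of these data known. Alternatives were RLE factors, no filter, a filter of at least 3 follicles (chosen after the data were seen), counts thinned to the smallest total, DESeq2, scran, an F distribution with a robust prior, log2(TPM + 1), a prior count of 0.5, and leaving out each follicle. The total count limits the precision of each value, and the range is given with the results.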

Additional observations from a re-analysis of the deposited data

How the results depend on the processing

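Of the recomputed ratios of single named genes, 319 kept the side of the threshold, 16 lost the call and 4 gained one. Of the recomputed r of gene pairs, 62 kept the direction and the side of the threshold, 14 lost the call and 1 gained one. For follicles left out, only the lowest and highest value of each gene or pair entered. Runs in which a named gene failed the filter did not enter. The exception in direction was Nr4a1 with Star, whose r of -0.45 ran from -0.59 without replicate 7 to 0.34 without replicate 4. The 357 genes beyond the trend became 699 with no filter, 173 with thinned counts, 654 with the filter of at least 3 follicles, 794 with DESeq2's trend, 0 with the F distribution and robust prior, 1437 with log2(TPM + 1) and 644 with scran, and 320 to 351 when 1 follicle was left out. The single follicle and gene pair became 11 with no filter, 0 with thinned counts (where Nr4a1 was not among the genes tested), 2 with the filter of at least 3 follicles, 133 with DESeq2 and 0 without replicate 4. Genes that varied with Star numbered 217, and 391 with no filter, 82 with thinned counts, 500 with DESeq2 and 37 to 223 with 1 follicle left out. With Nr4a1 the count of 1 became 5 with no filter, 0 thinned, 2 with the filter of at least 3 follicles, 27 with DESeq2 and 0 to 2 with 1 follicle left out. With Ptgs2 the count of 1 became 0 thinned, 136 with DESeq2 and 0 to 3 with 1 left out. With Gdf9 the count of 0 became 10 with DESeq2 and 0 to 1 with 1 left out. With the total count, 6 became 19 with no filter, 0 with the filter of at least 3 follicles, 32 with DESeq2 and 0 to 17 with 1 left out. The 9 gene pairs became 2 with thinned counts and 1 to 11 with 1 left out. The first component's 43.3% of variance became 41.0% thinned, 35.3% with the filter of at least 3 follicles, 25.8% with log2(TPM + 1) and 40.8% to 46.3% with 1 left out. Of the 357 genes beyond the trend, 251 were also called with no filter and 278 with the filter of at least 3 follicles. The causes of these shifts were not tested.

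No paired analysis was possible because all 11 follicles belong to 1 group and the labels pair none of them. Thinning to the total of replicate 7, 714844 counts, lowers the number of genes that can be tested, and genes with few counts, such as the oocyte markers, carry wide counting error.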

Other observations

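In replicate 6, Glo1, H2-K1 and H2-D1 of chromosome 17 were low, while H2-Q10 of the same chromosome was among its higher values. Glo1 (30584936 to 30626871, GRCm38) was at 23.0 CPM there, as given above. H2-K1 (33996017 to 34000347), a class I histocompatibility gene, was at 1105 CPM in replicate 6, against 2360.1 to 3799 CPM in the other 10 (log2 fold change -1.49 ± 0.30, edgeR's quasi-likelihood test, adjusted p = 0.571). H2-D1 (35262730 to 35267499), of the same class, was at 922 CPM in replicate 6, against 2542 to 5200.5 CPM (-2.16 ± 0.45, adjusted p = 0.581). H2-Q10 (35470089 to 35474563) fell into separate levels. It was at 246 to 469 CPM in replicates 1, 4, 5, 6 and 8 and at 50.1 to 80.6 CPM in the other 6. Class I genes are near-identical copies, so reads may be shared among them, and these genes were singled out after their values were seen.

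Other genes also fell into separate levels. Serpinb9b, a serine protease inhibitor with close paralogs, was at 105 and 102 CPM in replicates 1 and 6, against 8.33 to 24.0 CPM in the other 9. Gcsh was at 145 to 311 CPM in replicates 1, 3, 4 and 11, against 30.5 to 47.3 CPM in the other 7. Mid1ip1 was at 130.4 to 219.7 CPM in replicates 1, 3 and 4, against 25.5 to 44.2 CPM in the other 8.

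Some genes were close to absent in part of the follicles. Rhox8, a homeobox gene of somatic gonadal cells, was at 0 in replicates 1 and 3 and reached 82.9 CPM in replicate 6. Myocd, a coactivator of smooth muscle genes, was at 36.3 to 61.5 CPM in replicates 1, 3 and 4, against 0.576 to 11.5 CPM in the other 8. Fgl2, a secreted fibrinogen-like protein, was at 1077 CPM in replicate 8, against 0.774 to 198 CPM in the other 10. The mitochondrially encoded mt-Co3 was listed at 0 in 6 follicles and at 220.1 to 422 CPM in the other 5, and mt-Co1 ranged from 3286 CPM in replicate 1 to 21709 CPM in replicate 8. A further mitochondrial gene, mt-Nd1, stayed between 30791 and 41963 CPM. These levels are of counts after the authors' batch adjustment.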
